A study of Mus musculus with 6 samples.

Results

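HOX genes encode homeodomain transcription factors. In the mouse they lie in 4 clusters, HoxA on chromosome 6, HoxB on chromosome 11, HoxC on chromosome 15 and HoxD on chromosome 2, and genes with the same number in different clusters are paralogs. They were chosen here by their names in the array files, as every transcript probe whose gene name is Hox followed by a cluster letter and a number. This gave 39 genes with 52 probes, of 36902 named entries with 56118 probes in all. Counts and shares of all genes below also cover the noncoding and intergenic transcripts among these entries. Of the 39 genes, 29 had 1 probe and 10 had several.

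During development HOX genes are switched on in the order in which they lie along the chromosome, so that low-numbered genes mark anterior and high-numbered genes posterior parts of the body. HOX proteins bind DNA together with PBX and MEIS partners. Polycomb complexes keep HOX genes silent and Trithorax complexes keep them active, and retinoic acid can switch them on. The paralogs of group 11 are needed to start the definitive kidney, those of group 10 for the layout of its stroma, and Hoxb7 is known from the ureteric bud and the collecting duct that grows from it. The adult kidney keeps many HOX genes on.

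The study measured RNA of the kidney cortex on 1-colour Agilent arrays, labelled with Cy3 from 0.2 µg of RNA. The C3aR-/- control group held 3 samples from male C57BL/6 mice without C3ar1, the gene of the receptor for the complement fragment C3a. The WT control group held 3 samples from male C57BL/6 wild-type mice. Both groups started at 8 weeks of age on chow with 10% of its energy from fat, were injected with vehicle in place of streptozotocin, and were killed 20 weeks after induction. The labels give neither the deleted part of C3ar1 nor the cells in which it was deleted. Whether each sample came from its own animal is not spelled out in the labels, so p-values cover the spread between samples, which may be technical.

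Across the arrays 56.5% to 59.3% of the transcript spots were well above background. This is a flag of the scanner software for a spot clearly brighter than its surroundings. C3aR-/- replicate 1 stood apart by having 145 non-uniform spots, against 2 to 8 on each of the other arrays. All C3aR-/- arrays were on 1 slide and all WT arrays on another, so the slide and the genotype cannot be told apart in any comparison. The probe for C3ar1 was detected on 0 of 3 C3aR-/- arrays and 1 of 3 WT arrays, so it gives no check of the genotype. It read -5.60, -5.47 and -6.05 in C3aR-/- samples, against -5.03, -6.17 and -5.60 in WT samples. Levels are log2 signals relative to the 75th percentile of their own array, and each change is a C3aR-/- level minus a WT level. Levels are compared only within a probe.

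The probes are designed sequences of 60 bases. Because HOX genes resemble each other in the homeobox, the probes for Hoxd10 and Hoxc11, which hold codons of it, are shown here, in lower case with the codons of the third, DNA-reading helix of the homeodomain in capitals. Positions are on mouse build mm9, and both probes lie on the forward strand, at chr2:74532280-74532339 for Hoxd10 and chr15:102787015-102787074 for Hoxc11.
Hoxd10: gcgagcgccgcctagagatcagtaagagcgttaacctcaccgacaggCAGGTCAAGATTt
Hoxc11: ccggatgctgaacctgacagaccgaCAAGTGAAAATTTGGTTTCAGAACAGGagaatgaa
Between probes of different HOX genes the longest run of identical bases was 12, with a median of 9 over the probes. The probe for Hoxc11 carries the conserved codons well inside its length, and the probe for Hoxd10 has them at its 3′ end. The shared runs compare probes with each other, not with the transcripts of other HOX genes. Cross-hybridisation between HOX transcripts was not tested.

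Most HOX genes were detected, in unbroken runs along each cluster. Of the 39 genes, 30 had a probe well above background on all 6 arrays and 9 had none on any array. No HOX gene was detected in one genotype and not in the other. The 9 were Hoxa13, Hoxb1, Hoxb13, Hoxc12, Hoxc13, Hoxd1, Hoxd11, Hoxd12 and Hoxd13. All 6 genes of paralog groups 12 and 13, which mark the hind end of the body and the distal limb, were among them. Outside those groups, Hoxb1, Hoxd1 and Hoxd11 were not detected.

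By cluster, 10 of 11 HoxA genes were detected, 8 of 10 HoxB genes, 7 of 9 HoxC genes and 5 of 9 HoxD genes. The detected run reached Hoxa11 in HoxA, and it spanned Hoxb2 to Hoxb9 in HoxB, Hoxc4 to Hoxc11 in HoxC, and Hoxd3 to Hoxd10 in HoxD. In HoxD the detected run therefore ended before group 11, whereas Hoxa11 and Hoxc11 were detected. Of the 52 probes, 40 were well above background on all 6 arrays, 10 on none and 2 on some. The processed signal of the 10 undetected probes ran from 3.42 to 10.5 with a median of 3.84, and that of the 40 detected probes from 21.9 to 21288. The highest value of an undetected probe, 10.5, was that of Hoxd11 on C3aR-/- replicate 1, where the other arrays read 3.48 to 4.41. The lowest level of any probe well above background lay between -5.47 and -5.09 on the 6 arrays, so a gene below that is described as not detected, not as absent.

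Among the detected genes, 6 were higher in C3aR-/- cortex and none was lower. They were Hoxb5, Hoxc9, Hoxc10, Hoxd8, Hoxd9 and Hoxd10, and the rises were between 1.29-fold and 1.59-fold. A call is an adjusted p under 0.05 in limma, adjusted over 20490 genes. The 6 rises make up 20% of the 30 genes tested, while 7.05% of all genes tested rose. The 0 falls compare with 7.26% of all genes. Without adjustment, 11 HOX genes were higher and 1 was lower at a p under 0.05, which is 36.7% and 3.33% of those tested, while 18.1% of all genes were higher and 15.3% lower at that limit (33.4% in either direction). Levels of the 2 genotypes did not overlap in 10 genes that were higher and 3 that were lower, where 22.2% of all genes were higher and 19.1% were lower without overlap. The median change over the 30 genes was 0.10, against 0.02 over all genes, with 20 positive and 10 negative changes.

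The count rests on every array. It was 3, 3 and 1 without C3aR-/- replicates 1, 2 and 3, and 2, 5 and 4 without WT replicates 1, 2 and 3. When dim probes were kept in the test, 1 HOX gene was called. Hoxd10 was called under each of these settings.

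Hoxd10, a group 10 paralog, showed the firmest rise. Its level was -0.380, -0.297 and -0.241 in the C3aR-/- samples, against -1.002, -0.922 and -0.991 in the WT samples. The genotypes were far apart relative to their spread, with means of -0.31 ± 0.07 in C3aR-/- and -0.97 ± 0.04 in WT (SD, n = 3 each). The change was 0.67 (SE 0.06, 95% interval 0.51 to 0.82), a 1.59-fold rise (limma, adjusted p = 0.00598). With any 1 array left out it lay between 0.63 and 0.70, with a highest adjusted p of 0.0306.

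Its neighbours Hoxd9 and Hoxd8 rose by less. Hoxd9 stood at 1.393, 1.321 and 1.325 in C3aR-/- samples, against 0.885, 1.099 and 0.941 in WT samples. All C3aR-/- samples were higher, and the change was 0.37 (SE 0.08, adjusted p = 0.0307). The brightest probe of Hoxd8 read 4.68, 4.69 and 4.63 in C3aR-/- samples, against 4.29, 4.32 and 4.17 in WT samples. The change was 0.41 (SE 0.06, adjusted p = 0.018), a 1.32-fold rise with no overlap. The second Hoxd8 probe read 2.62, 2.76 and 2.66 in C3aR-/- samples, against 2.44, 2.47 and 2.31 in WT samples. It was also without overlap, at a change of 0.28, but did not pass in the test over 30867 probes (adjusted p = 0.0666).

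The HoxC cluster had 2 neighbouring rises, Hoxc9 and Hoxc10. Hoxc10, a group 10 paralog like Hoxd10, read -0.33, -0.32 and -0.21 in C3aR-/- samples, against -0.83, -0.56 and -0.75 in WT samples. Its change was 0.43 (SE 0.09, adjusted p = 0.0322). Hoxc9 read 1.73, 1.54 and 1.72 in C3aR-/- samples, against 1.29, 1.31 and 1.13 in WT samples. Its change was 0.42 (SE 0.09, adjusted p = 0.0309), and the lowest C3aR-/- sample was again above the highest WT sample.

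In HoxB only Hoxb5, which is known from lung development, was called. It read -0.82, -0.94 and -0.97 in C3aR-/- samples, against -1.28, -1.68 and -1.47 in WT samples. WT replicate 1 was the highest WT sample and still lay below every C3aR-/- sample. The change was 0.57 (SE 0.11, adjusted p = 0.0297), a 1.48-fold rise. Hoxb5, Hoxc9, Hoxc10 and Hoxd9 each kept their call with 1 of the 6 arrays left out and lost it with each of the other 5. Hoxd8 kept it in 3 of 6. The highest adjusted p among these was 0.104, for Hoxc10, and all of their changes stayed positive.

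**Figure D1:**
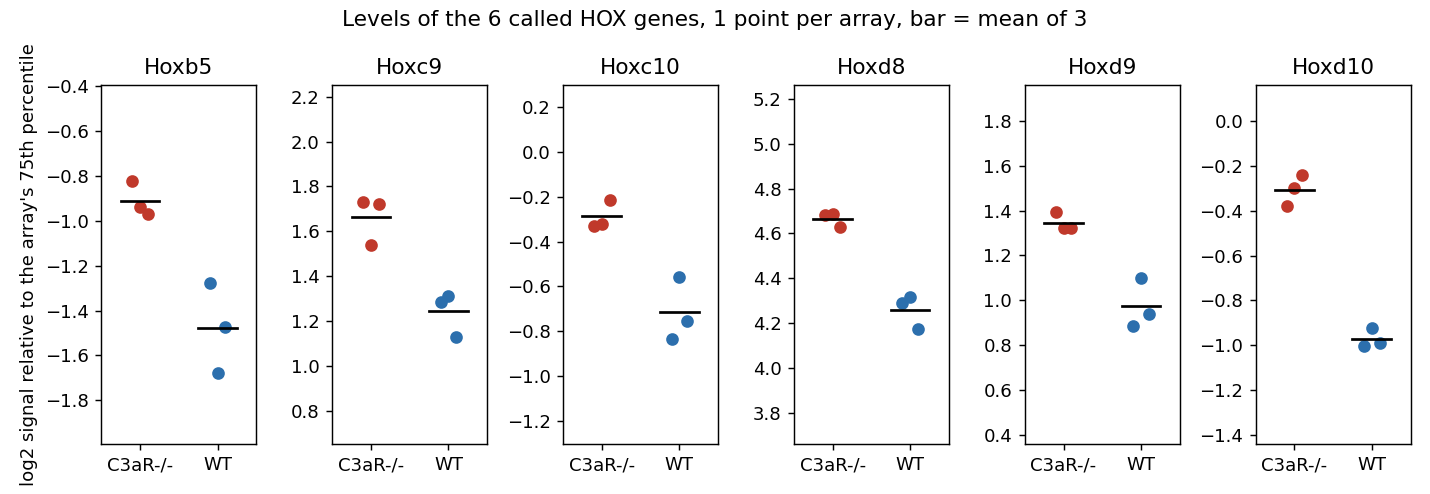
Levels of the 6 called genes in each sample, as log2 signal relative to the 75th percentile of the array, with C3aR-/- samples left of WT samples, 1 point per array and a bar at the mean of 3. The panels share the length of their axes but not their position, and in each panel all C3aR-/- points lie above all WT points.

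Counted by cluster, the calls were 0 of 10 tested in HoxA, 1 of 8 in HoxB, 2 of 7 in HoxC and 3 of 5 in HoxD. Counted along the clusters, they were 0 of 6 in groups 1 to 3, 2 of 15 in groups 4 to 8 and 4 of 9 in groups 9 to 11. Beside these counts, 7.05% of all genes tested rose. Differences between clusters and between groups were not tested. The median change was 0.07 in HoxA, 0.18 in HoxB, 0.32 in HoxC and 0.37 in HoxD, beside 0.02 over all genes.

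Within a paralog group some members passed the test and others did not. In group 10, Hoxd10 and Hoxc10 rose, while Hoxa10 read 3.12, 2.97 and 3.13 in C3aR-/- samples, against 3.24, 3.25 and 3.14 in WT samples. That was a change of -0.13 with a 95% interval of -0.31 to 0.04, and the genotypes did not overlap by a narrow margin. The dimmer Hoxa10 probe went the other way, at 0.11 (interval -0.03 to 0.26), also without overlap. In group 9, Hoxc9 and Hoxd9 rose, and Hoxa9 stood at -0.06 with an interval of -0.27 to 0.16. Hoxa9 read -0.09, -0.32 and -0.18 in C3aR-/- samples, against -0.03, -0.18 and -0.21 in WT samples, which overlapped. These are the values of its brightest probe. Another Hoxa9 probe was higher in C3aR-/- samples without overlap, at 0.21 (interval 0.0016 to 0.43). It did not pass in the test over probes (limma, adjusted p = 0.155). The sign for Hoxa9 and Hoxa10 therefore depended on the probe.

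Hoxb9, also of group 9, was the HOX gene with a negative change and an unadjusted p under 0.05. It read 0.04, -0.16 and -0.28 in C3aR-/- samples, against 0.06, 0.15 and 0.36 in WT samples. The change of -0.32 (SE 0.12, interval -0.61 to -0.03) did not pass (adjusted p = 0.123). In group 8, Hoxd8 rose, Hoxb8 changed by 0.63 without passing (adjusted p = 0.0781) and Hoxc8 changed by 0.09, with an interval of -0.13 to 0.31. The differences between paralogs were not tested.

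Group 11 holds the genes that start the definitive kidney, and its 2 detected members did not pass. Hoxc11 had the widest gap of any HOX gene and the widest spread. It read -2.31, -2.78 and -2.16 in C3aR-/- samples, against -4.87, -2.70 and -4.80 in WT samples. WT replicate 2 lay inside the C3aR-/- range, whereas WT replicates 1 and 3 were close to the lowest detectable level. The change was 1.71 (SE 0.60, interval 0.24 to 3.18, adjusted p = 0.11), and 2.42 without WT replicate 2 (adjusted p = 0.0194).

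Hoxa11 read -2.71, -2.62 and -2.61 in C3aR-/- samples, against -3.17, -3.01 and -2.35 in WT samples. WT replicate 3 was above and the other WT samples below every C3aR-/- sample. The change was 0.20 (interval -0.32 to 0.72), and 0.44 without WT replicate 3 (adjusted p = 0.0458). For both genes a single WT array decided the call. Hoxd11 was not detected in any sample.

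**Figure D2:**
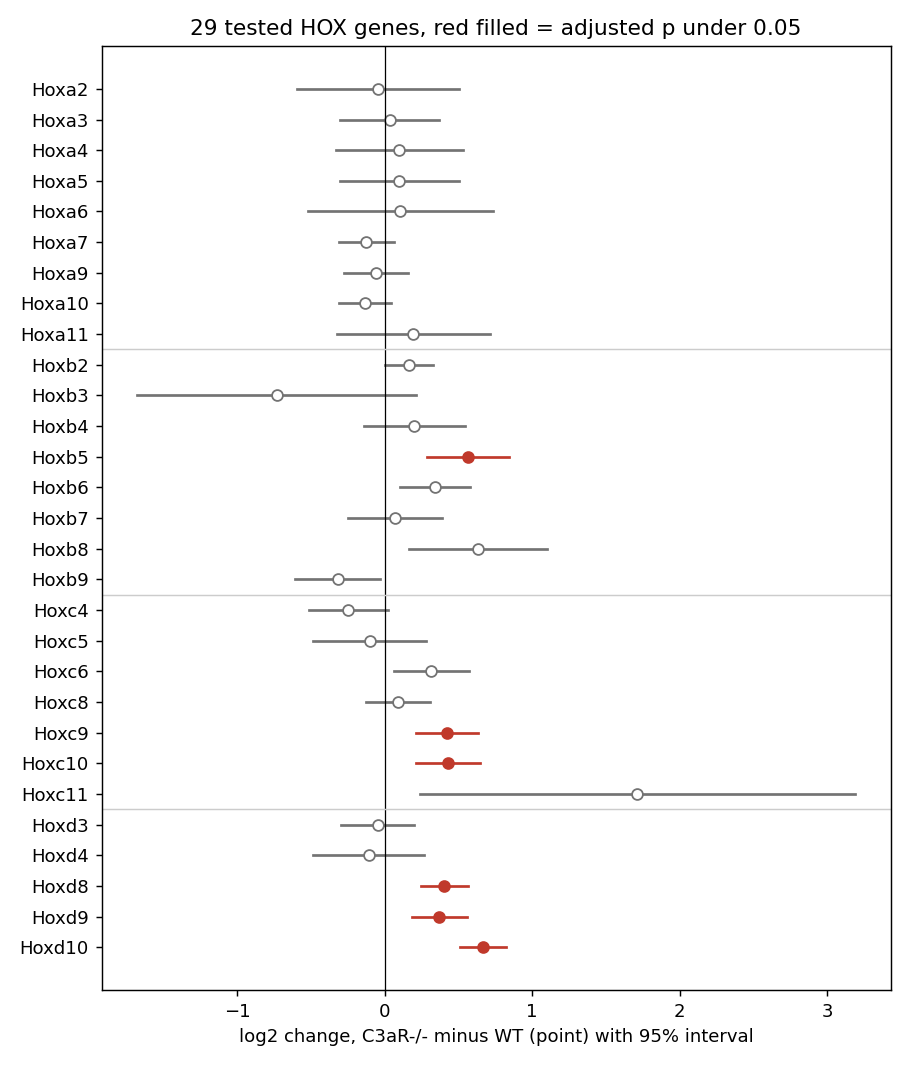
Changes of 29 of the 30 tested HOX genes (C3aR-/- minus WT, log2) with 95% intervals, ordered by cluster and number, filled in red where the adjusted p was under 0.05. The 6 called genes lie between 0.37 and 0.67, the HoxA genes between -0.13 and 0.20, and Hoxc11 and Hoxb3 have the widest intervals.

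A further 4 genes had an unadjusted p under 0.05 and a positive change without passing. Hoxb8 read -0.31, -1.05 and -0.55 in C3aR-/- samples, against -1.19, -1.38 and -1.22 in WT samples. C3aR-/- replicate 2 was the closest to the WT samples. The change was 0.63 (adjusted p = 0.0781), and 0.84 without C3aR-/- replicate 2 (adjusted p = 0.0303). Hoxb6 read 1.87, 2.13 and 2.20 in C3aR-/- samples, against 1.73, 1.68 and 1.76 in WT samples. Its change was 0.34 (adjusted p = 0.0686), and 0.44 without C3aR-/- replicate 1, the lowest of its genotype (adjusted p = 0.0297).

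Hoxc6 read 2.14, 2.04 and 2.12 in C3aR-/- samples, against 1.74, 1.62 and 1.98 in WT samples. Its change was 0.32 (adjusted p = 0.0918), and 0.42 without WT replicate 3, the highest of its genotype (adjusted p = 0.0456). Hoxb2 read 1.08, 0.93 and 1.01 in C3aR-/- samples, against 0.81, 0.81 and 0.90 in WT samples. Its change was 0.16 (adjusted p = 0.146), the smallest of these 4. In all 4 genes every C3aR-/- sample was above every WT sample.

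The HoxA cluster is the one with the most detected genes, and its changes were small. At the brightest probe of each gene they ran from -0.13 for Hoxa10 to 0.20 for Hoxa11. The 95% intervals of all 10 lay between -0.59 and 0.73, so larger changes lie outside them. The narrowest intervals were those of Hoxa10 and of Hoxa7, from -0.31 to 0.07 around a change of -0.12. The widest was that of Hoxa6, from -0.52 to 0.73. Hoxa5, known from lung and rib development, and Hoxa4 each stood at 0.10. Hoxa3, which shapes the thymus and parathyroid, stood at 0.04 and Hoxa2 at -0.04. The sign of Hoxa2, Hoxa3, Hoxa4, Hoxa6 and Hoxa9 changed with the scaling, the background correction or the averaging of probes, so no direction is given for them.

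The remaining genes had intervals that included 0. Hoxb7, the ureteric bud gene, was bright at 3.38, 3.16 and 2.98 in C3aR-/- samples, against 3.19, 3.20 and 2.93 in WT samples. Its change was 0.07 with an interval of -0.25 to 0.39. Hoxb4 stood at 0.20 (interval -0.14 to 0.54), Hoxc4 at -0.24 (interval -0.51 to 0.03) and Hoxc5 at -0.10 (interval -0.48 to 0.28). In HoxD the 2 lower-numbered detected genes did not pass, with Hoxd4 at -0.11 (interval -0.49 to 0.27) and Hoxd3 at -0.05 (interval -0.30 to 0.20). The sign of Hoxd3 changed with the scaling and the background correction, so no direction is given for it.

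Several probes of a gene did not always give the same value. Of 41 HOX probes tested singly, 6 were called higher and 0 lower, while 6.18% of all 30867 probes tested were called higher. Of 9 genes with at least 2 tested probes, 4 had probes of opposite sign. Hoxb3 varied most. Its brightest probe, the one in the homeobox, read -3.25, -3.87 and -3.82 in C3aR-/- samples, against -3.49, -2.09 and -3.18 in WT samples. WT replicate 2 was far above every other sample. The change was -0.73 (interval -1.67 to 0.22), and 0.30 without that array. The other Hoxb3 probes changed by 0.34 and -0.44, so Hoxb3 is given no direction.

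Hoxb8 had a second probe at 0.09 beside the 0.63 of its brightest, and Hoxc6 had one at 0.05 beside 0.32. For Hoxb9 the second probe stood at 0.03, for Hoxa10 at 0.11, and for Hoxa9 the other probes stood at 0.21 and 0.14. A dimmer probe that the files name Hoxb2 lies on the reverse strand, opposite to Hoxb2 and the other HoxB genes, and stood at 0.96 beside the 0.16 of the forward-strand probe. It was well above background on 3 of 3 C3aR-/- arrays and 2 of 3 WT arrays, so it entered the test through C3aR-/- alone. One of 3 Hoxa3 probes was well above background on C3aR-/- replicate 1 alone. Of the 6 called genes, Hoxd8 has more than 1 probe, and both probes had the same sign.

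**Figure D3:**
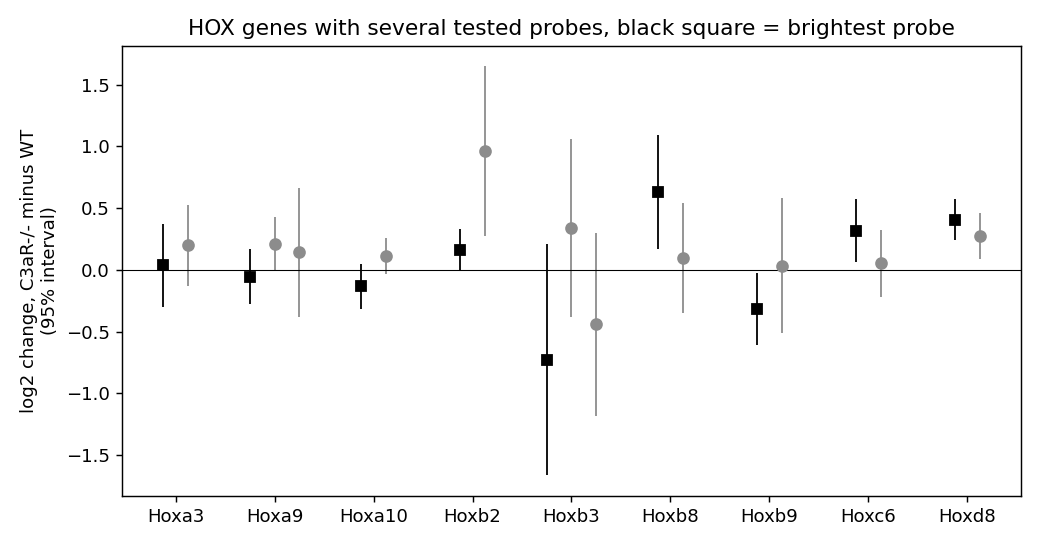
Changes (C3aR-/- minus WT, log2, with 95% intervals) of every tested probe for the 9 HOX genes with at least 2 tested probes, with the brightest probe as a black square and the others in grey. Hoxa9, Hoxa10, Hoxb3 and Hoxb9 have probes on both sides of 0, and both Hoxd8 probes lie above it. The grey Hoxb2 probe is on the strand opposite to the gene.

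The called genes lay next to each other in 2 of the clusters. The probes of Hoxd10, Hoxd9 and Hoxd8 lie within 13.7 kb of chromosome 2, at chr2:74532280-74545981 on mm9, and no other detected HOX gene lies between them. The probes of Hoxc10 and Hoxc9 lie within 12.9 kb of chromosome 15, at chr15:102801857-102814794. HOX clusters are dense in noncoding and antisense transcripts, many of which have probes of their own. Of 52 other array entries inside the clusters or within 100 kb of them, 30 were tested, and 3 were higher and 1 was lower in C3aR-/- cortex. Of these 30, 29 had a probe well above background on all arrays. Of the 29 entries inside the clusters, 21 were tested, and 1 was higher and 1 was lower. The share of all genes called in either direction was 14.3%.

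Between the called HoxD genes, 2 other transcripts had probes, and neither was called. BC060302, a forward-strand entry between the probes of Hoxd10 and Hoxd9, read -3.44, -3.66 and -3.95 in C3aR-/- samples, against -3.77, -3.91 and -3.63 in WT samples. Its change was 0.08 (interval -0.28 to 0.44). Gm38462, on the reverse strand between Hoxd9 and Hoxd8, read 0.70, 0.66 and 0.59 in C3aR-/- samples, against 0.80, 0.97 and 0.71 in WT samples. Its change was -0.18 (interval -0.38 to 0.03). The interval of Gm38462 ends below the changes of Hoxd10, Hoxd9 and Hoxd8 (0.67, 0.37 and 0.41), while that of BC060302 ends below the change of Hoxd10 and includes those of Hoxd9 and Hoxd8. The differences between these transcripts and the HOX genes were not tested.

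Farther along HoxD, 3 more transcripts were measured. Hoxd3os1, named for the strand opposite Hoxd3, changed by -0.19 (adjusted p = 0.21), and its second probe was not detected on any array. AI448005 changed by -0.28 (adjusted p = 0.259). Haglr, a noncoding antisense gene of the cluster, read -3.57, -3.52 and -3.76 in C3aR-/- samples, against -3.89, -4.24 and -4.07 in WT samples, without overlap. Its change was 0.45 (adjusted p = 0.0525). Between Hoxc10 and Hoxc9, Gm4200 was well above background on 2 of 3 C3aR-/- arrays and on 0 of 3 WT arrays and was not tested.

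In HoxA a called neighbour fell. Gm15050, a forward-strand transcript at chr6:52123942-52124001 opposite to the HoxA genes, read -1.81, -1.93 and -2.13 in C3aR-/- samples, against -1.37, -1.24 and -1.29 in WT samples. All C3aR-/- samples were lower, and the change was -0.66 (SE 0.10, adjusted p = 0.0149). Its probe lies between the brightest probes of Hoxa3 and Hoxa4, which stood at 0.04 and 0.10. The other transcripts inside HoxA did not pass. The files give the name Hoxaas3 to a probe on each strand. The brighter one, on the strand of the HoxA genes, stood at 0.47 (adjusted p = 0.157), and the one on the opposite strand at 0.11 (interval -0.23 to 0.45). Hoxaas2 at 0.32 (adjusted p = 0.317), Hoxa11os at 0.18 (adjusted p = 0.365), AK039882 at 0.07 (adjusted p = 0.808) and the bright Mira at -0.11 (adjusted p = 0.253).

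In HoxB a called neighbour rose. A long intergenic RNA entry on the forward strand at chr11:96115056-96115115, between Hoxb13 and Hoxb9, read -2.93, -2.78 and -2.99 in C3aR-/- samples, against -3.54, -3.42 and -3.70 in WT samples. Its change was 0.65 (SE 0.10, adjusted p = 0.0158), while the entry for the reverse strand of the same place changed by 0.05 (interval -0.12 to 0.23). Another forward-strand entry nearer to Hoxb9 stood at 0.51 (adjusted p = 0.0772). Hoxb5os, named for the strand opposite Hoxb5 with probes close to Hoxb7, read 3.07, 2.95 and 2.92 in C3aR-/- samples, against 3.24, 3.21 and 3.22 in WT samples, opposite in direction to Hoxb5. Its change was -0.24 (adjusted p = 0.0557), and a second probe stood at 0.00. The 6 other tested entries inside HoxB, Gm53, AK085288, Gm11536, BE847805 and 2 short intergenic entries, had changes of 0.03 to 0.36, and none was called.

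Inside the clusters the entries BE649209, 9530018H14Rik, Gm11538, Gm14424, AK016928 and 1 Ensembl transcript in HoxA were not detected on any array. Outside the clusters 2 entries were called. One was 5730585A16Rik beside HoxC, at -4.15, -4.04 and -4.10 in C3aR-/- samples, against -4.76, -4.52 and -4.82 in WT samples, a change of 0.60 (adjusted p = 0.0167). It kept its call in 6 of 7 processing alternatives and in 3 of 6 fits with 1 array left out. Its lowest change over these fits was 0.15. The other was a reverse-strand intergenic entry beside HoxA, with a change of 0.61 (adjusted p = 0.0428). It was well above background on 3 of 3 C3aR-/- arrays and 1 of 3 WT arrays, so it entered the test through C3aR-/- alone and its WT level is largely a bound. It was not called with the mean of its probes (adjusted p = 0.0668). The entry kept its call in 3 of 6 processing alternatives and in 1 of 6 fits with 1 array left out. Its lowest change over these fits was 0.09, and its highest adjusted p in the processing alternatives was 0.559. Beside it Halr1, a noncoding RNA, stood at 0.45 (adjusted p = 0.174). HOTAIR, the HoxC antisense RNA known for acting on HoxD, was not detected on any array, nor was Evx1. Hottip, the noncoding RNA at the far end of HoxA, was well above background on 1 C3aR-/- array and on no WT array. Evx2, the neighbour of Hoxd13, was detected on all arrays, although Hoxd11, Hoxd12 and Hoxd13 were not, and its probes stood at -0.03 (interval -0.44 to 0.38) and -0.56 (interval -1.32 to 0.21).

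**Figure D4:**
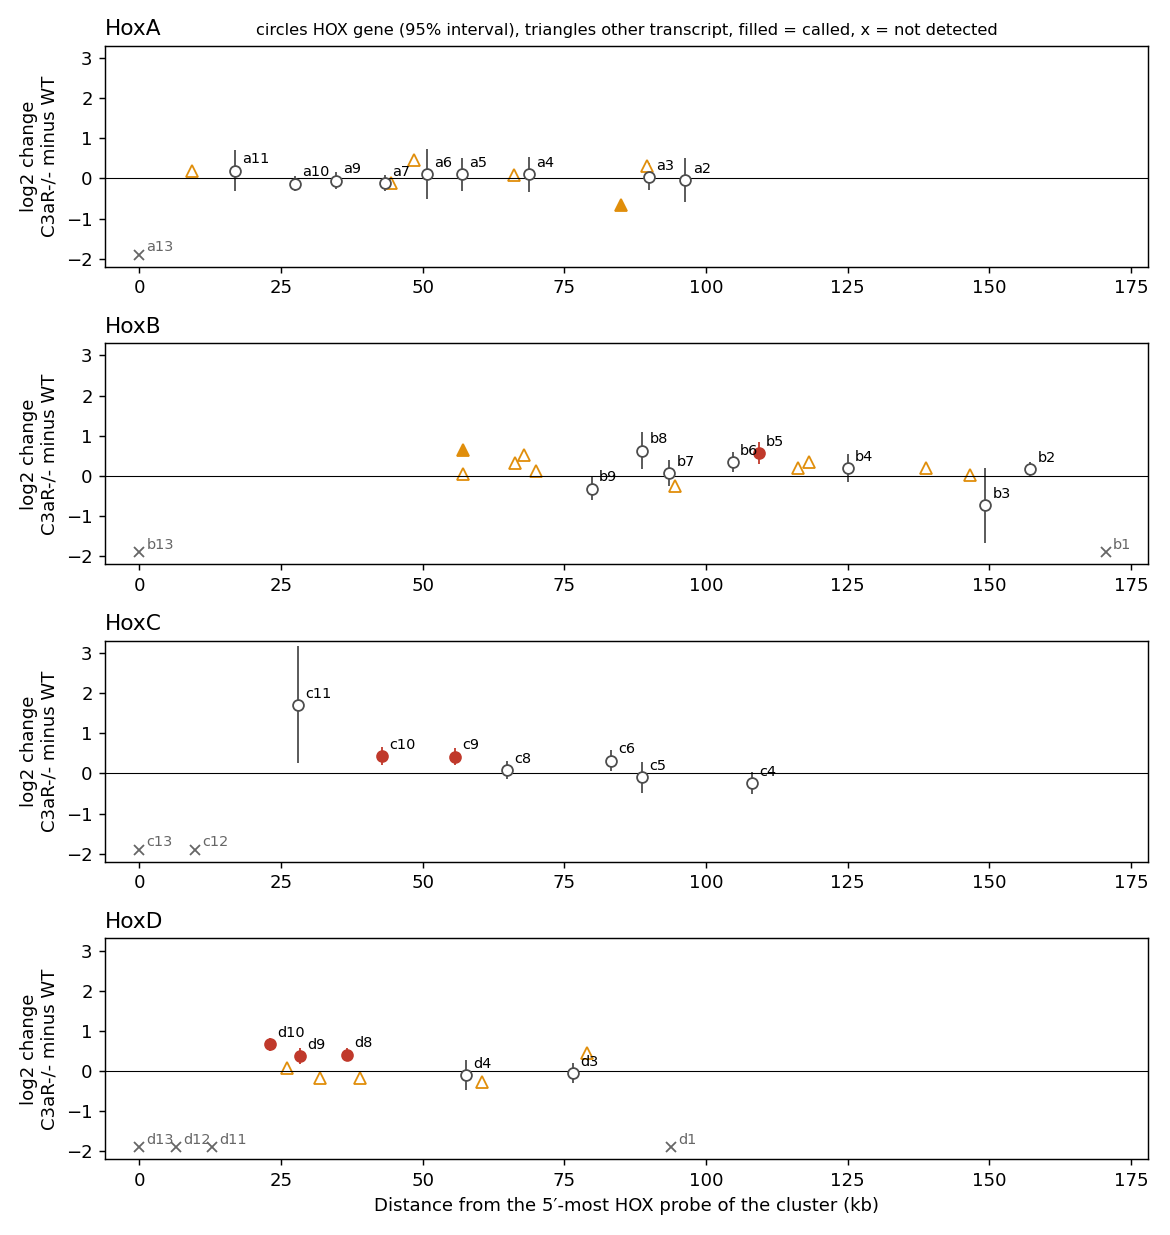
Change (C3aR-/- minus WT, log2, with 95% intervals for HOX genes) against distance in kb from the HOX probe with the highest number of each cluster, 1 panel per cluster. Circles are HOX genes (29 of the 30 tested), triangles other transcripts inside the cluster, filled symbols passed the test, and crosses mark undetected genes at an arbitrary height. The filled circles of HoxD and of HoxC each sit side by side, with open triangles among those of HoxD.

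Promoter sequences of RefSeq on build GRCm38.p6, windows of 300 bases that lie mostly before the gene start, were matched to 22 of the 39 genes. They are shown for 2 neighbouring called genes, Hoxd8 at chr2:74704365-74704664 and Hoxd10 at chr2:74691641-74691940, and for the undetected Hoxd13 at chr2:74667975-74668274, all on the forward strand. Capitals mark the CpG sites, the pairs at which DNA can be methylated.
Hoxd8: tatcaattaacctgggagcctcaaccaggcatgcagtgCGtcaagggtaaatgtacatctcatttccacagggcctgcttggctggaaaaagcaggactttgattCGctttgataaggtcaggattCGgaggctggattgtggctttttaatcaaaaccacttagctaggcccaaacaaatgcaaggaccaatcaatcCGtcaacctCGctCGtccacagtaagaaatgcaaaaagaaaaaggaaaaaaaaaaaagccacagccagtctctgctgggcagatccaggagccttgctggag
Hoxd10: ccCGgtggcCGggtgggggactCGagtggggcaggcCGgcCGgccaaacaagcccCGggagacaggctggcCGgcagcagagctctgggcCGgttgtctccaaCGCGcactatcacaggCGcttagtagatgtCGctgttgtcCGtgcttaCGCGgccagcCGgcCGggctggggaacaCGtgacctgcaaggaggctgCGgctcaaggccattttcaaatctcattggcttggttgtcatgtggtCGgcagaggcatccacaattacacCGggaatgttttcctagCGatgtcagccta
Hoxd13: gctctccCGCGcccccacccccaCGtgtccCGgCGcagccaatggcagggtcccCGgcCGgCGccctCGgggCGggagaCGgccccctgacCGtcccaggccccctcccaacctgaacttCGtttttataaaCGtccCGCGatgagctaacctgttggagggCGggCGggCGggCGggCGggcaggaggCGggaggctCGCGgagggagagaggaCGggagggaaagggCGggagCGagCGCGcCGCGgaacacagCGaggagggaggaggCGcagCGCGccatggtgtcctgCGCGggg
Hoxd8 has 6 CpG sites in this window, Hoxd9 20, Hoxd10 22 and Hoxd13 37, so called neighbours differed. Over all 32851 promoters the median was 7. It was 25 over 7 promoters of 6 undetected HOX genes and 14 over 17 promoters of 16 detected ones, as a description without a test. The counts overlapped, from 4 to 45 in undetected and from 4 to 29 in detected genes. Among the undetected, Hoxd11 has windows of 4 and 25 sites.

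A search of both strands found none of 4 motifs in the windows of Hoxd8, Hoxd9, Hoxd10 or Hoxd13. The PBX-HOX site TGATTNAT is present in 3.22% of all promoters, the MEIS site TGACAG in 19.2%, the core TTTATNG of posterior HOX and CDX proteins in 10.9%, and the retinoic acid element of the DR5 type in 0.00913%. Among the 24 HOX promoters the PBX-HOX site, the MEIS site and the posterior core were each found in 2, or 8.33%. With so few windows, these shares were not tested against those of all promoters. A PBX-HOX site with T at its N can run on into the posterior core, so these motifs can overlap. The absence of these letters says nothing of the factors.

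The partners and regulators of HOX genes were read from the same fit. Of 11 cofactors, 10 were tested, and 0 rose and 2 fell. These 2 are 20% of the cofactors tested, beside the 14.3% of all genes called in either direction. Meis2, a DNA-binding partner of HOX proteins, fell by 0.48 at its brightest probe (adjusted p = 0.0297), and its 5 tested probes ran from -0.48 to 0.39. It was not called with the mean of its probes, so no direction is given for it. Meis1 stood at 0.31 (adjusted p = 0.129) and Pbxip1 at 0.26 (adjusted p = 0.0579).

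Among 30 Polycomb genes, which keep HOX genes silent, 2 rose and 1 fell, or 10% called, below the 14.3% of all genes. Cbx2 rose by 0.48 (adjusted p = 0.0242) and Phf1 by 0.33 (adjusted p = 0.0282). Cbx8 fell by 0.72 (adjusted p = 0.0117), with its second probe at -0.10. The methyltransferases stood at -0.22 for Ezh2 (adjusted p = 0.164) and 0.13 for Ezh1 (adjusted p = 0.256). The median change of the list was -0.11, against 0.02 over all genes. Among 19 Trithorax genes and other activators, 0 rose and 2 fell, or 10.5% called, also below that of all genes. They were Dot1l by 0.34 (adjusted p = 0.0211) and Hcfc1 by 0.23 (adjusted p = 0.0392). The other Dot1l probes were nearer to 0, the nearest at -0.02, and Dot1l was not called with the mean of its probes. Hcfc1 had 1 tested probe, so its change stayed the same in that setting, but it was not called there either.

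Of 21 genes of the retinoic acid axis, 20 were on the array and 16 were tested. Rdh10, which makes retinal for retinoic acid, fell by 0.56 (adjusted p = 0.045) and was the only call, or 6.25% of those tested, below the 14.3% of all genes. The retinoic acid receptors Rara, Rarb and Rarg stood at -0.05, -0.17 and 0.13 and were not called. Of 16 genes that act with group 11 in the early kidney, 11 were tested, and 1 rose and 1 fell, or 18.2%, near the share of all genes. The brightest probe of Wt1, which is needed for the early kidney and is kept in podocytes, stood at 0.43 (adjusted p = 0.0327) and its second probe at -0.02. Wt1 was not called with the mean of its probes (adjusted p = 0.194), so no direction is given for it. Six2, of nephron progenitors, and Gdnf and Ret, a ligand and its receptor in the outgrowth of the ureteric bud, were too dim to be tested.

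The cell types behind the HOX signals were not separated, and in whole cortex fewer cells of a type and less RNA per cell cannot be told apart. Markers of cortex were bright, with proximal tubule genes at a summed level of 1185 to 1248 in C3aR-/- samples and 977 to 1071 in WT samples, in units of the array's 75th percentile. Principal cells of the collecting duct arise from the ureteric bud, where HOX genes act. Of 8 tested markers of these cells 3 rose, Aqp2 by 0.88 (adjusted p = 0.00374), Scnn1g by 0.48 (adjusted p = 0.046) and Aqp3 by 0.40 (adjusted p = 0.0399). That is 37.5% of these markers, beside the 7.05% of all genes that rose. The other tested markers were not called, with Scnn1b at 0.49, Avpr2 at 0.30, Hsd11b2 at 0.09, Gata3 at 0.08 and Fxyd4 at -0.03. The list summed to 49.1 to 55.4 in C3aR-/- samples and 42.4 to 42.5 in WT samples. Its part in the HOX changes was not tested.

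Intercalated cell markers summed to 49.5 to 51.6 in C3aR-/- samples and 47.1 to 48.3 in WT samples, with 1 of 7 higher and 1 lower. These counts stand beside 7.05% of all genes higher and 7.26% lower. Proximal tubule had 2 of 10 higher, Slc6a19 by 1.12 (adjusted p = 0.00612) and Slc5a2 by 0.34 (adjusted p = 0.0335). Thick limb and distal tubule had 1 of 8 higher and 1 lower. Podocytes had 1 of 6 called, Wt1, by its brightest probe, and no direction is given for Wt1. Endothelium had 2 of 7 higher, Pecam1 at 0.51 and Plvap at 0.42, and 1 lower, Kdr at -0.53. Inner medulla had 0 of 3 called. Stroma, the site where group 10 acts, had 0 of 9 called, with a summed level of 23.5 to 30.4 in C3aR-/- samples and 22.3 to 34.8 in WT samples. Of 8 tested leukocyte markers 1 was lower, Cd68, and Cd79a was not detected on any array.

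Markers of tissues next to the cortex were read as well. Of 7 urothelium markers, Upk1b, Upk2, Upk3a, Upk3b and Krt5 were not detected on any array, and the list summed to 0.178 to 0.195 in C3aR-/- samples and 0.178 to 0.193 in WT samples. Upk1a was lower in C3aR-/- cortex, with a change of -0.35 (adjusted p = 0.0315). Of 6 markers of fat around the kidney, Adipoq, Plin1, Cfd and Retn were not detected, and the list summed to 0.193 to 0.231 in C3aR-/- samples and 0.232 to 0.256 in WT samples. The adrenal enzymes Cyp11a1 and Cyp11b1 were not detected either, while Hsd3b1 was lower in C3aR-/- cortex with a change of -0.43 (adjusted p = 0.0282). The 6 adrenal markers summed to 0.399 to 0.454 in C3aR-/- samples and 0.505 to 0.613 in WT samples. The part of these markers in the HOX changes was not tested.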

How the data were processed

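Per the file headers, each array was read by Agilent Feature Extraction 10.7.1.1 (mm9), which gave every spot intensity values (a processed signal with the background subtracted, the mean and the local background) and flags. The authors also deposited a table of log2 values, with a median of 5.41 in each column and a correlation of 0.995 to 0.996 between a column and the processed signal of the same array on the log2 scale. Its centring is not stated, and it served as an alternative.

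Control spots and outlier spots were left out, spots of a probe were averaged, and 106 probes without an unflagged spot on every array and 381 without a name were dropped. No spot was saturated. The log2 processed signal minus the array's 75th percentile (662 to 827 before the log) was kept for probes well above background on all 3 arrays of a genotype. The brightest probe stood for a gene. The titles of the samples gave the groups and the replicate numbers. C3aR-/- and WT were compared with limma 3.58.1 (lmFit, eBayes, two-sided) in R 4.3.3, adjusted by Benjamini-Hochberg, a fit tested on simulated data. Every p of a gene is from limma. The number of arrays limits the precision. Symbols came from RefSeq (GRCm38.p6, names and promoters only), which matched 32994 of 56605 probes, and exon annotation was not used here. Alternatives changed the background correction, the scaling, the filter, the probe rule and the source of values, and left out each array.

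A few genes that the rule names are not reported here by name, though the counts include them. Every other HOX gene was named, with values per sample for those called, past an unadjusted p of 0.05 or detected in groups 9 to 11. The other array entries inside the clusters were given as well. Of the lists, only some of the called and uncalled members were named, while the counts cover all members. The members, lists and rule were chosen with earlier results of these data known.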

Additional observations from a re-analysis of the deposited data

How the results depend on the processing

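The number of detected HOX genes was 30 under each rule tried, and the median HOX change lay between 0.07 and 0.16 throughout. The 6 HOX calls were 6 or 7 with normexp background correction, median scaling, quantile normalisation, only probes detected on all 6 arrays, the mean of the probes and the deposited log2 table. With dim probes kept in the test, 1 of the 6 HOX genes was called, 1 HOX probe, 936 of all genes against 2931, and 0 cofactors, 1 Polycomb gene, 0 Trithorax genes, 0 genes of the retinoic acid axis and 0 of the group 11 pathway. Median scaling called 1820 genes higher of 2872, against 1444 of 2931, and 1 Trithorax gene. Normexp correction called 2 genes of the retinoic acid axis. The mean of the probes called 0 cofactors, 0 Trithorax genes, 2 genes of the retinoic acid axis and 1 of the group 11 pathway.

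With any 1 array left out, the calls ran from 1 to 5 HOX genes, 1 to 3 HOX probes, 665 to 1659 genes, 2 to 4 cluster neighbours, 0 to 1 cofactors, 0 to 2 Polycomb genes, 0 to 1 Trithorax genes, 0 to 0 genes of the retinoic acid axis and 0 to 1 of the group 11 pathway. Among these HOX gene calls, 1 to 4 were of the 6 genes called with all arrays. Without C3aR-/- replicate 1, the 3 HOX probes called were 2 higher and 1 lower. Fewer arrays leave less power. The changes of some uncalled genes then took both signs: Hoxa2 from -0.29 to 0.10, Hoxa3 from -0.075 to 0.11, Hoxa4 from -0.079 to 0.25, Hoxa5 from -0.067 to 0.21, Hoxa6 from -0.14 to 0.26, Hoxa9 from -0.11 to 0.0078, Hoxb3 from -1.01 to 0.30, Hoxb7 from -0.035 to 0.17, Hoxc5 from -0.25 to 0.039, Hoxd3 from -0.13 to 0.0086 and Hoxd4 from -0.22 to 0.028. Normexp correction turned the sign of Hoxa3 (-0.035), Hoxa4 (-0.018), Hoxa6 (-0.015), Hoxa9 (0.020) and Hoxd3 (0.078). Median scaling turned Hoxa2 (0.0068) and Hoxd3 (0.0044), quantile normalisation Hoxa2 (0.0069), and the mean of the probes Hoxa9 (0.10). The cause of these turns was not tested.

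The arrays share replicate numbers across genotypes. The deviations of arrays with the same number from their group means correlated at 0.04, -0.03 and -0.07, so no strong shared effect of the number was seen. This check cannot tell whether samples with the same number were handled together. With the replicate number as a block, the calls were 1 HOX gene, 1 HOX probe, 650 genes, 2 cluster neighbours, 0 cofactors, 1 Polycomb gene, 0 Trithorax genes, 0 genes of the retinoic acid axis and 1 of the group 11 pathway. The HOX gene was Hoxd10. The tested HOX genes with the lowest mean levels, and so nearest to background, were Hoxa2 (-4.52 in C3aR-/- and -4.47 in WT) and Hoxc5 (-4.27 in C3aR-/- and -4.18 in WT).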
